A study of Mus musculus with 11 samples.

Results

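The genes described here mark B cells and plasma cells without encoding antibody. They are 9: Cd79a, Cd79b, Ms4a1, Cd22 and Blk as B cell markers, Mzb1, Tnfrsf17 and Sdc1 as plasma cell markers, and Pou2af1, which both cell types use. They were chosen by name, and every probe set whose annotation gave 1 of these symbols and no other was taken. A probe set is a group of short probes that read 1 transcript. Of the 9 genes, 8 had such a probe set, with 13 probe sets in all out of 20380 single-gene probe sets on the array. Mzb1 had none and was not analysed here.

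The tissue was sympathetic ganglia, isolated from fresh-frozen tissue by laser capture. All mice were 78-week-old males of strain C57BL kept on normal chow. There were 6 arrays from mice of genotype apoE-/-, called Apoe-deficient here, and 5 from wild-type mice, all obtained from the Jackson Laboratory. The labels do not tie arrays to animals, so the p-values measure only the spread between these samples, which may be technical, and they are too small if arrays share an animal.

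B cells carry an antigen receptor on their surface. The receptor signals through Cd79a and Cd79b, and Cd22 restrains that signal. After activation some B cells become plasma cells, which switch off much of this surface equipment, enlarge the secretory pathway and release antibody. Pou2af1 is a coactivator that works with octamer-binding factors at antibody gene promoters and stays on in both cell types. Sdc1, or CD138, marks plasma cells among blood cells, but epithelial and some other cells make it too. Peripheral ganglia hold nerve cells, glia, vessels and resident immune cells, and lymphocytes are a minor population there.

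The 11 arrays had median signals from 162 to 188 and trimmed mean signals from 492 to 497. Apoe, the deleted gene, checked the labels: its signal ran from 7.2 to 268.2 in Apoe-deficient arrays and from 11830.3 to 19649.2 in wild-type arrays, a log2 difference of -6.75 (SE 0.45, limma adjusted p = 4.39e-06). All 10 probe sets of the sympathetic neuron list, among them that of Dbh, which makes noradrenaline, passed the filter for low values. RNAs added to every array as hybridisation controls gave 3 levels of signal. The lowest level held only Apoe-deficient arrays (2, 3 and 4), the middle level held array 5 of the Apoe-deficient group with arrays 3, 4 and 5 of the wild-type group, and the highest level held arrays 1 and 6 of the Apoe-deficient group with arrays 1 and 2 of wild-type.

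Most member probe sets read near the background. The line used was the 40th percentile of all values, a signal of about 110 on the normalised scale, passed in at least 5 of the 11 arrays. By that line 6 of the 13 probe sets (46.2%) were above background, against 62.6% of all single-gene probe sets. The 6 were 1 each of Ms4a1, Cd22, Blk and Pou2af1 and 2 of Sdc1. The brighter Cd22 probe set and these Sdc1 probe sets passed in all 11 arrays, and Blk in 6 Apoe-deficient and 4 wild-type arrays. The brighter Ms4a1 probe set passed in 3 Apoe-deficient and 2 wild-type arrays. Pou2af1 passed in 5 Apoe-deficient and 0 wild-type arrays, so it entered the test only through the group in which it was high.

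The line itself is low for this purpose. Of 65 probe sets for genes that belong to other tissues, such as retina, testis and pancreas, 10 (15.4%) also passed it. Against the 95th percentile of those probe sets in the same array, a signal between 156 and 262, only 3 member probe sets were higher in at least 5 arrays. They were the brighter Cd22 probe set in 5 arrays and the brighter Sdc1 probe sets in 6 and 8. In Apoe-deficient replicates 5 and 6 taken singly, 8 member probe sets lay above it in each, against 0 to 4 in every other array.

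**Figure D1:**
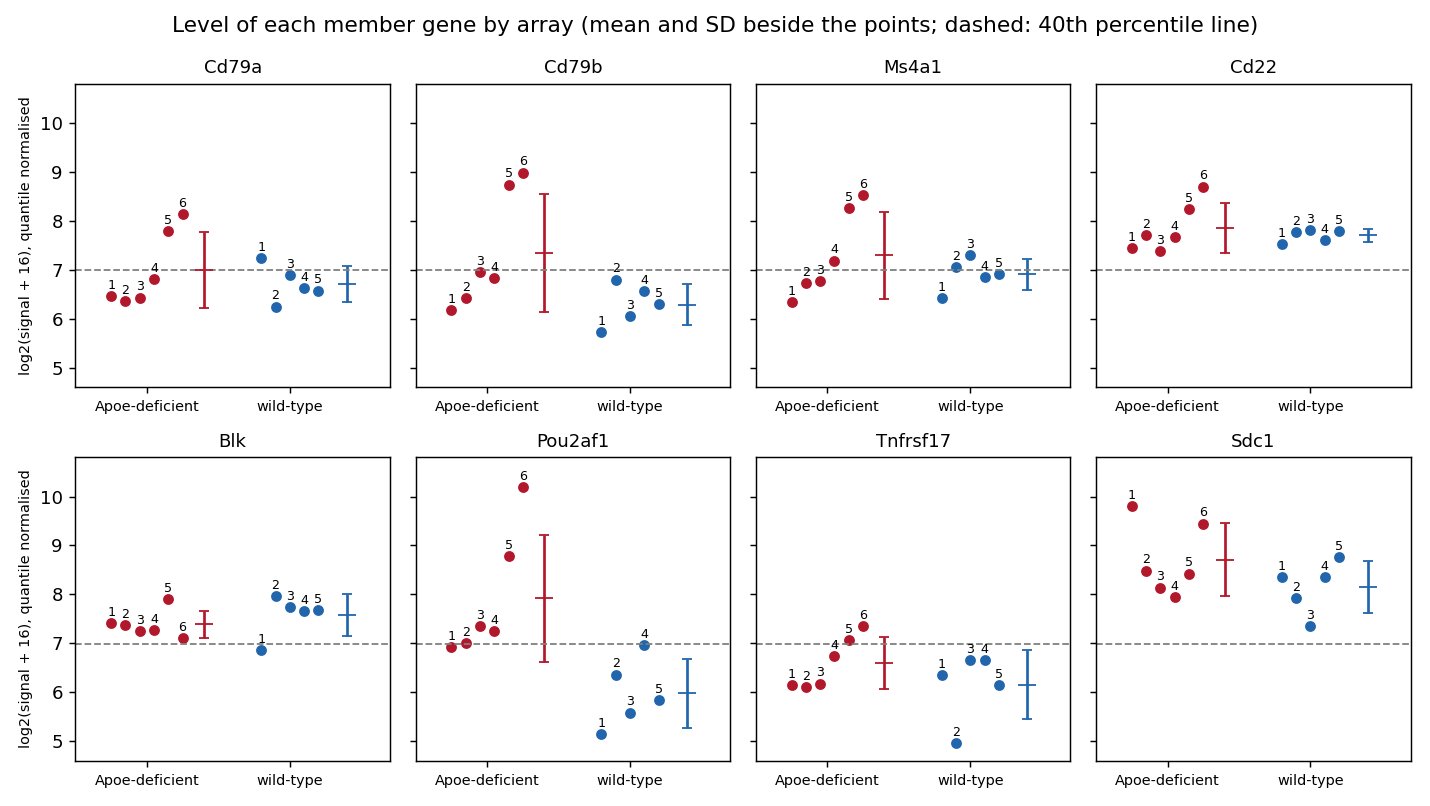
Normalised log2(signal + 16) of the brightest probe set for each of the 8 measured genes, by array, with Apoe-deficient arrays on the left and wild-type arrays on the right of each panel. Numbers are replicates, bars are mean and SD (n = 6 and 5), and the dashed line is the 40th percentile. Apoe-deficient replicates 5 and 6 are the highest for Cd79a, Cd79b, Ms4a1, Cd22, Pou2af1 and Tnfrsf17, and are not for Blk or Sdc1.

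No member probe set passed the test between the groups as run here; 2 other settings, given with Pou2af1, called that gene. With limma, 0 of the 6 probe sets above the line were called at an adjusted p below 0.05, against 1.35% of all 13863 probe sets tested. At an unadjusted p below 0.05 there was 1, Pou2af1, against 19.3% of all probe sets tested. In the fit without the filter 0 of the 13 were called, against 0.734% of all 22626 probe sets, and 3 had an unadjusted p below 0.05 (Pou2af1, Cd79b and the dim Cd22 probe set), against 16% of all probe sets. Neither count stands clear of its background share. All differences are Apoe-deficient minus wild-type of log2(signal + 16), a scale that makes the change of a dim gene look smaller than it is. Adjusted p-values of probe sets under the line come from the fit without the filter. In bulk tissue, fewer cells of a type and less RNA per cell cannot be told apart.

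Among the B cell markers, the receptor component Cd79b had signals of 51.0, 63.4, 94.5, 97.1, 417.2 and 496.9 in the 6 Apoe-deficient arrays, against 40, 100.4, 53.6, 68.4 and 68.3 in the wild-type arrays. Replicates 5 and 6 stood alone, and the other 4 Apoe-deficient arrays lay inside the wild-type range. Its log2 difference was 1.06 (SE 0.48, adjusted p = 0.302). Without those 2 arrays, a choice made after the values were seen, it was 0.31 (adjusted p = 0.549).

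Its partner Cd79a had 65.8, 60.3, 60.9, 95.9, 212.1 and 282.9 in Apoe-deficient arrays, against 138.8, 63.1, 109.1, 72.1 and 85.5 in wild-type arrays. The same 2 arrays were the highest and the others lay inside or just below the wild-type range. For Cd79a the log2 difference was 0.29 (SE 0.34, adjusted p = 0.705), and without replicates 5 and 6 it was -0.20.

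Ms4a1 encodes CD20, a membrane protein of mature B cells that plasma cells lose. Its brighter probe set read 59.2, 83.4, 80.3, 129.6, 294.9 and 362.3 in Apoe-deficient arrays, against 75.0, 122.1, 146.0, 87.6 and 112.5 in wild-type arrays. Replicates 5 and 6 again exceeded every wild-type array, and 1 of the other Apoe-deficient arrays was below all of them. This gave a log2 difference of 0.39 (SE 0.36, adjusted p = 0.555), and -0.15 without those 2. The dim probe set averaged 35.6 ± 38.4 in Apoe-deficient arrays (SD, n = 6) and 11.8 ± 9.88 in wild-type arrays (SD, n = 5), with 91.8 and 77.4 in replicates 5 and 6 and at most 25.8 in any other array.

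Cd22, the inhibitory coreceptor, read 147.9, 191.4, 139.6, 184.9, 290.6 and 410.4 with its brighter probe set in Apoe-deficient arrays, against 171.3, 202.0, 213.0, 165.4 and 213.3 in wild-type arrays. Only replicates 5 and 6 were above the wild-type range. For this probe set the log2 difference was 0.16 (SE 0.21, adjusted p = 0.708), and -0.15 without them. The dim probe set had 2.8, 4.7, 3.5, 22.9, 42.4 and 69.2 in Apoe-deficient arrays and at most 8.1 in wild-type arrays, so that replicate 4 also exceeded the wild-type range. Its log2 difference was 0.78 (SE 0.34, adjusted p = 0.285).

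Blk, a Src-family kinase of the receptor pathway, did not share the pattern. It read 145.6, 145.5, 124.7, 137.9, 229.6 and 133.9 in Apoe-deficient arrays, against 105.9, 233.7, 201.7, 172.7 and 196.3 in wild-type arrays. Replicate 6, the highest array for most other B cell markers, was the second lowest of its group here. Blk had a log2 difference of -0.19 (SE 0.20, adjusted p = 0.609).

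Pou2af1 had the largest difference of the 13 probe sets. Its signals were 98.2, 107.2, 135.6, 136.7, 431.0 and 1117.8 in Apoe-deficient arrays, against 21.7, 69.4, 34.2, 98.0 and 45.0 in wild-type arrays. In deposited signal the groups did not overlap, but the lowest Apoe-deficient array (98.2) and the highest wild-type array (98.0) nearly met, and after normalisation they crossed (log2 values 6.92 and 6.97). By deposited signal, 1.53% of all probe sets above the line lay higher in every Apoe-deficient array than in any wild-type array. Pou2af1 had a log2 difference of 1.94 (SE 0.53, 95% interval 0.79 to 3.08, unadjusted p = 0.00264, adjusted p = 0.091), so it did not pass the threshold. In the fit without the filter, which does not depend on how it entered the test, the adjusted p was 0.135.

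The Pou2af1 call depended on the setting. With array weights the difference was 1.77 (adjusted p = 0.0383) and without Apoe-deficient replicate 1 it was 2.13 (adjusted p = 0.0486). Over 29 settings the adjusted p ran from 0.0383 to 0.611. Without replicates 5 and 6 the difference was 1.15 (adjusted p = 0.103 without the filter), and the other 4 Apoe-deficient arrays were still above every wild-type array in deposited signal. Within the high level of the hybridisation controls it was 2.80 and within the middle level 2.65, where the only Apoe-deficient array is replicate 5.

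Promoter sequences from RefSeq (build GRCm38.p6) were searched for 5 of the 9 genes. Mzb1, which had no single-gene probe set, was left out of that search. The 250 bases before the start are shown for the receptor component Cd79a (chr7:24897247-24897496, + strand) and for Pou2af1 (chr9:51213440-51213689, + strand), because both read highest in the same 2 arrays while only Pou2af1 separated the groups in deposited signal. Capitals mark GGAAGT, a core read by Ets factors, in Cd79a, and TGACGT, the core of the cAMP response element, in Pou2af1.
Cd79a: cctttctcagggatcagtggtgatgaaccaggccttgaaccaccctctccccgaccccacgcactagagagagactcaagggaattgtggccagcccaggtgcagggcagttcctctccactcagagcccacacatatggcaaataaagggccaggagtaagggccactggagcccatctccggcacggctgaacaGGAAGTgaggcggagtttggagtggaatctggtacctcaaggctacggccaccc
Pou2af1: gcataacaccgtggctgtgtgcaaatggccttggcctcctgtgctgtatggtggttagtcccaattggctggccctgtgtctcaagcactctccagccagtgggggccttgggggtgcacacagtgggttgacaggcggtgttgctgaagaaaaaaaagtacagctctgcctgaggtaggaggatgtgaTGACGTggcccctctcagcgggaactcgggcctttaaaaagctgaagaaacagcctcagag

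On either strand, 19.7% of the 32851 promoter windows in that table hold GGAAGT and 6.47% hold TGACGT. The octamer ATGCAAAT, the element at which the Pou2af1 protein acts, is in 1.60% of windows and in 0 of the 5 member windows searched. These matches describe the letters of the windows and say nothing of which factors bind there. Cd79a and Cd22, like the deleted gene Apoe, lie on chromosome 7.

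The plasma cell marker Tnfrsf17 encodes BCMA, a receptor through which long-lived plasma cells receive survival signals. It read 49.3, 48.5, 48.6, 91.1, 122.1 and 159.7 in Apoe-deficient arrays, against 70.8, 15.9, 90.2, 75.1 and 60.3 in wild-type arrays. Replicates 5 and 6 were the highest, replicate 4 was just above the wild-type range and the rest lay inside it. Tnfrsf17 had a log2 difference of 0.44 (SE 0.33, adjusted p = 0.530), and it was above the background line only in replicates 5 and 6.

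Sdc1, the other plasma cell marker, was high in a partly different pair of arrays. Its brightest probe set read 861.9, 351.1, 255.6, 224.9, 333.4 and 681.0 in Apoe-deficient arrays, against 315.7, 225.9, 151.6, 292.2 and 427.9 in wild-type arrays. Replicates 1 and 6 were high while replicate 5 sat inside the wild-type range. Sdc1 had a log2 difference here of 0.56 (SE 0.33, adjusted p = 0.358).

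The next probe set of Sdc1 had the same 2 arrays on top, with 507.1 and 479.7, and its log2 difference was 0.53 (SE 0.28, adjusted p = 0.319). The third ran from 24.2 to 271.3 in Apoe-deficient arrays and from 26.0 to 148.1 in wild-type arrays, with a difference of 0.59 (adjusted p = 0.579). The last was near the floor, with a difference of 0.06 (adjusted p = 0.943). Epithelial markers, the other cells in which Sdc1 is common, were mostly dim: 3 of 16 probe sets passed the line and 0 were called. Epcam, which defines epithelium, had at most 24.1 in Apoe-deficient arrays and 8.5 in wild-type arrays. The summed signal of the epithelial list ran from 1251 to 1626 in Apoe-deficient arrays and from 1315 to 1670 in wild-type arrays. Within the Apoe-deficient group it was highest in replicate 1 (1626), where the brightest Sdc1 probe set also peaked. In replicate 6, the other array high for Sdc1, it was 1294. Whether epithelial cells gave part of the Sdc1 signal was not tested.

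**Figure D2:**
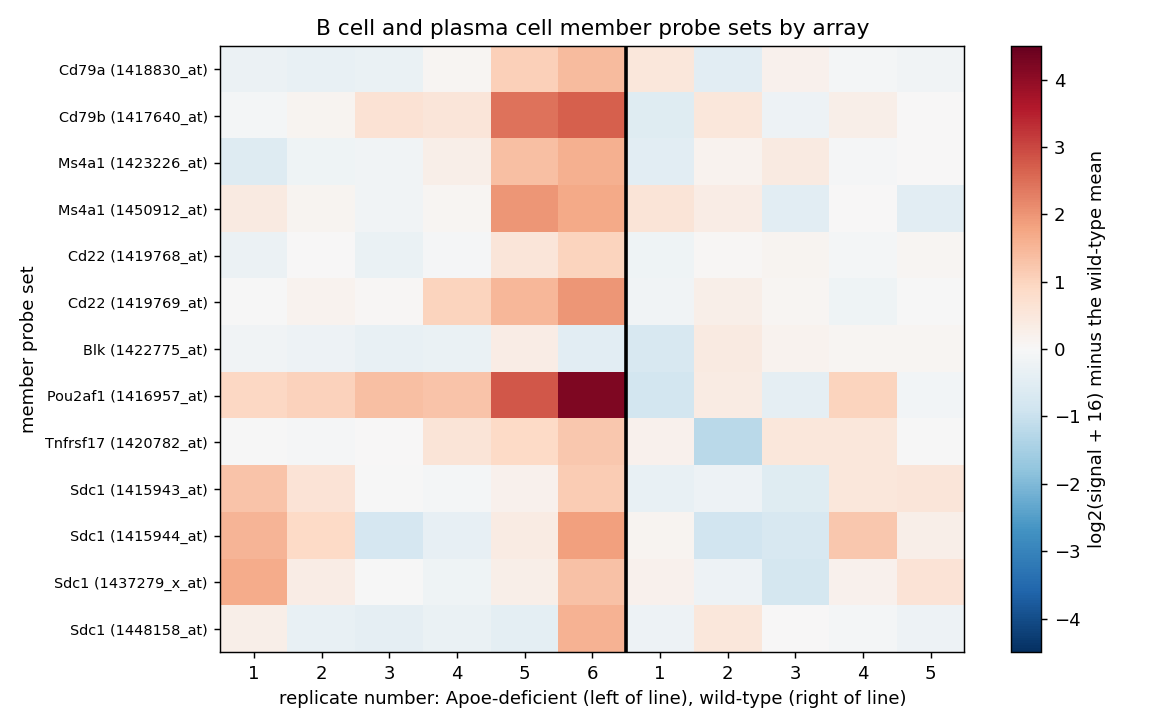
Each of the 13 member probe sets (rows) in each of the 11 arrays (columns, Apoe-deficient left of the line, wild-type right), coloured by log2(signal + 16) minus the wild-type mean of that probe set. Red columns at Apoe-deficient replicates 5 and 6 run through the Cd79a, Cd79b, Ms4a1, Cd22, Pou2af1 and Tnfrsf17 rows but not through Blk, while the Sdc1 rows are red at replicates 1 and 6.

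The highest B cell signals came from the same 2 arrays. Apoe-deficient replicates 5 and 6 were the 2 highest of all 11 arrays in 8 of the 13 member probe sets, covering 6 of the 8 genes. The same was true of 632 of all 20380 single-gene probe sets (3.10%). The lead was not particular to B cell genes. It held in 17 of 44 other plasma cell probe sets (38.6%) and in 11 of 25 antibody probe sets (44.0%). The summed signal of the 5 B cell markers was 1444 and 1686 in these 2 arrays and 469.5 to 645.4 in the other Apoe-deficient arrays, against 531.0 to 723.4 in wild-type arrays. The sum of Tnfrsf17 and Sdc1 peaked in Apoe-deficient replicate 1 (911.2), with 840.7 in replicate 6 and 455.5 in replicate 5, against 241.8 to 488.2 in wild-type arrays. That sum is mostly Sdc1, which gave 861.9 in replicate 1 against 49.3 for Tnfrsf17. Tnfrsf17 alone was highest in replicates 6 and 5 (159.7 and 122.1), as most B cell markers were. Replicate 5 belongs to the middle and replicate 6 to the high level of the hybridisation controls.

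**Figure D3:**
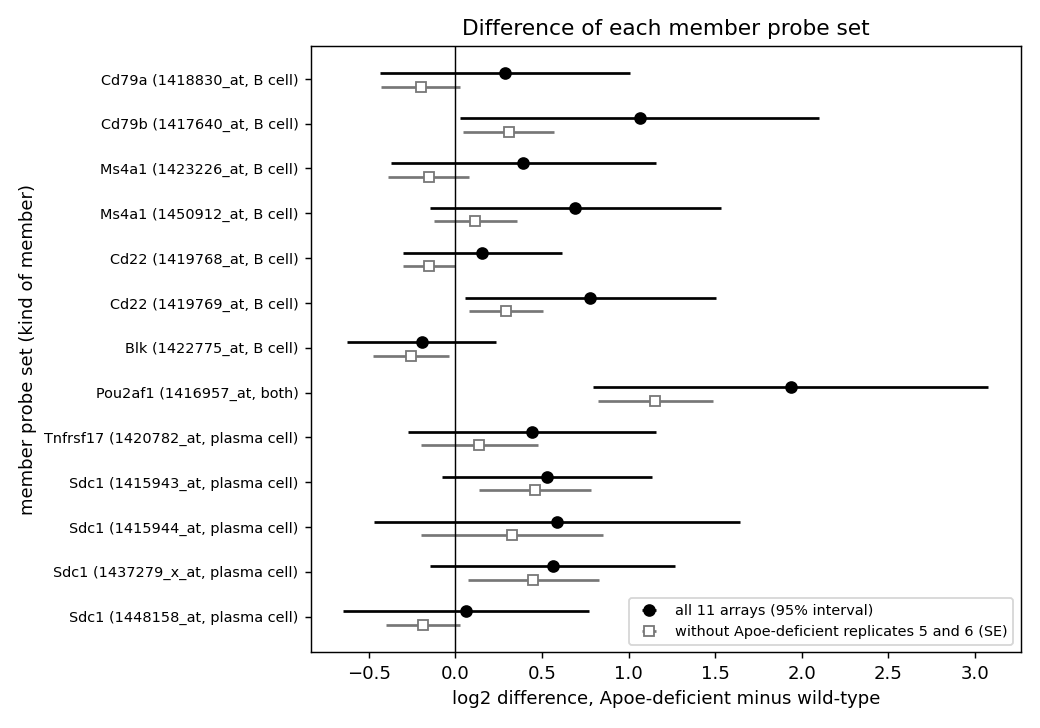
Log2 difference, Apoe-deficient minus wild-type, of each member probe set over all 11 arrays (filled circles, 95% intervals) and without Apoe-deficient replicates 5 and 6 (open squares, SE). The interval of Pou2af1 (0.79 to 3.08) is clear of 0 before adjustment, and 5 of the 7 B cell probe sets move to 0.12 or below without the 2 arrays.

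The B cell and plasma cell markers can be set side by side only as a description. The 7 B cell probe sets had a median log2 difference of 0.39, with 6 above 0, and the 5 plasma cell probe sets one of 0.53, with 5 above 0. Over all 22626 probe sets the median was -0.02 and 47.4% were above 0. Without replicates 5 and 6 the B cell median was -0.15 and the plasma cell median 0.33, which rests on Sdc1 for 4 of its 5 values. Those arrays were left out after the values were seen. They were the 2 highest in 6 of the 7 B cell probe sets and in 1 of the 5 plasma cell probe sets. Leaving them out therefore lowers the B cell values by construction, so these medians cannot compare the 2 classes. The difference between the 2 classes was not tested.

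Antibody genes passed the test. Jchain, which joins antibody units in plasma cells, read 2895.2, 2658.7, 4678.2, 3669.9, 9143.0 and 26860.7 in Apoe-deficient arrays, against 86.0, 182.4, 86.7, 2047.4 and 326.0 in wild-type arrays (log2 difference 4.33, adjusted p = 0.00731; 3.71 and 0.0181 without replicates 5 and 6). In Apoe-deficient replicates 1 to 4, Jchain was above every wild-type array while Cd79b, Cd79a and Ms4a1 were not. Wild-type replicate 4 was the highest wild-type array for Jchain and for Pou2af1 (98.0), and its Cd79b (68.4) and Ms4a1 (87.6) lay within the range of the other wild-type arrays. Of the 14 antibody probe sets above the line, 8 rose, against 1.35% of all probe sets tested that were called. They were of the genes Ighm, Igk, Igkv8-30, Igkv9-120, Iglv1 and Jchain, which read closely related sequences in part. The Igk probe set of largest difference passed the line in 6 Apoe-deficient and 0 wild-type arrays, so it entered only through the high group. Without replicates 5 and 6, 5 of 12 were called (Ighm, Igk, Igkv9-120 and Jchain), against 3.56% of all probe sets.

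**Figure D4:**
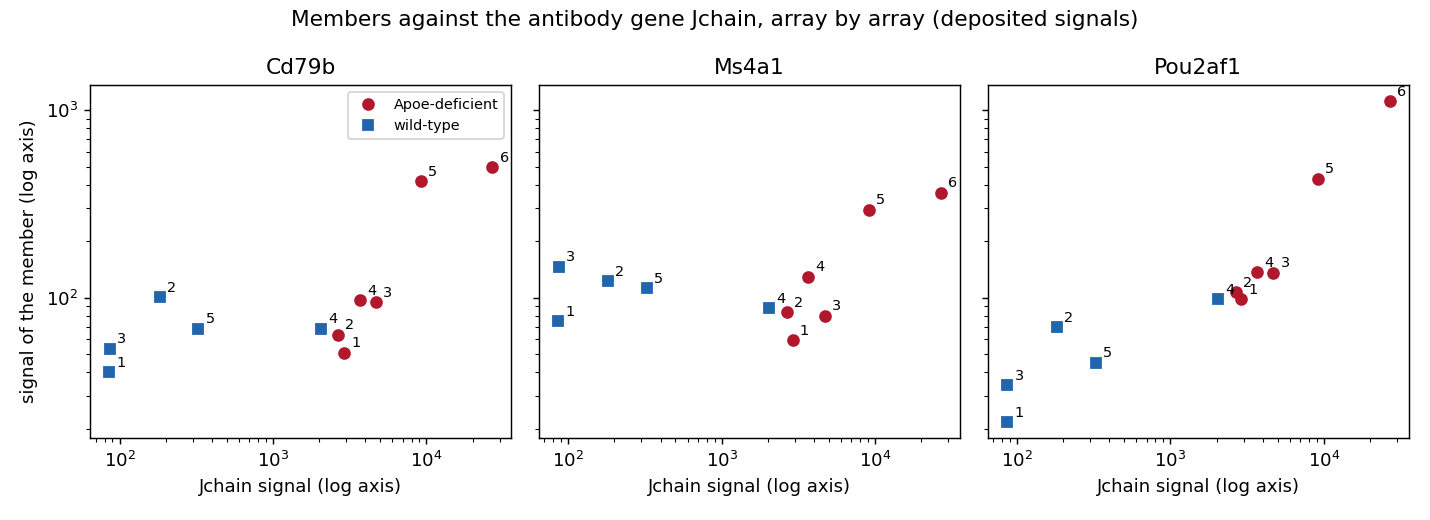
Deposited signal of Cd79b, Ms4a1 (brighter probe set) and Pou2af1 against that of Jchain, array by array, on log axes, with Apoe-deficient arrays as circles and wild-type arrays as squares, numbered by replicate. Apoe-deficient replicates 1 to 4 lie to the right of all wild-type arrays at wild-type levels of Cd79b and Ms4a1, and at 98.2 to 136.7 for Pou2af1.

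Other B cell genes were mostly under the background line. Of 30 probe sets for 21 genes, 4 passed the line. Of these 4, limma called 0, and 1 had an unadjusted p below 0.05. Their median log2 difference was 0.02, against 0.06 over all 30. Among those above the line, the 2 genes of smallest p were Cd72, a B cell coreceptor (0.82, adjusted p = 0.209), and Ebf1 (-0.56, adjusted p = 0.383). Ebf1 is a B lineage factor that other cells use too. Replicates 5 and 6 were the 2 highest arrays in 14 of the 30 probe sets (46.7%).

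Pax5, the B cell identity factor that plasma cells switch off, was under the background line in all 11 arrays and was tested only in the fit without the filter. It read 50.1, 48.2, 34.3, 42.4, 88.9 and 50.2 in Apoe-deficient arrays, against 33.3, 10.1, 13.2, 20.2 and 12 in wild-type arrays. The groups did not overlap, but signals this low are not above background. In that fit the difference passed the threshold (1.07, SE 0.22, adjusted p = 0.0434), and without replicates 5 and 6 it did not (0.96, adjusted p = 0.0551).

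In the receptor signalling list, 0 of 19 probe sets above the line were called, with a median log2 difference of 0.23. At an unadjusted limma p below 0.05 there were 7, against 19.3% of all probe sets tested. Blnk, the adaptor that links the receptor to its kinases, had 147.8, 111.7, 127.6, 158.8, 283.8 and 386.6 in Apoe-deficient arrays, against 97.0, 104.2, 91.2, 102.8 and 82.1 in wild-type arrays. The groups did not overlap, as in 1.53% of all probe sets above the line, and replicates 5 and 6 were again the highest. Blnk signals in wild-type arrays, at most 104.2, were near the background line. Its log2 difference was 0.91 (SE 0.25, adjusted p = 0.0943). Cd81, a partner of the B cell coreceptor that many cell types make, had 0.40 (adjusted p = 0.113). Without the filter Vav1, a signalling exchange factor of blood cells, was called (1.22, adjusted p = 0.0181) at signals of at most 63.3 in Apoe-deficient arrays and 13.3 in wild-type arrays.

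Of the other plasma cell genes, 1 of 29 probe sets above the line was called, 12 had an unadjusted p below 0.05 (against 19.3% of all probe sets tested), and 25 were above 0 with a median of 0.27. The called one was Trp53inp1, a stress-response gene that many cell types express: it averaged 1211 ± 482 in Apoe-deficient arrays (SD, n = 6) and 503 ± 141 in wild-type arrays (SD, n = 5), a log2 difference of 1.20 (SE 0.25, limma adjusted p = 0.0302). Its second probe set gave 0.55 and was under the line. Ell2, an elongation factor for secreted antibody transcripts, had 0.86 (adjusted p = 0.0505).

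Without replicates 5 and 6, 3 of 25 plasma cell probe sets were called, while the share called over all probe sets was 3.56% in that fit and 1.35% with all arrays. They were Trp53inp1 (0.91, adjusted p = 0.0344), Txndc5, a disulfide isomerase (0.72, adjusted p = 0.0214), and Edem1, which clears misfolded glycoproteins (0.80, adjusted p = 0.0431). With all arrays Txndc5 had 1.19 (adjusted p = 0.0822) and Edem1 1.41 (adjusted p = 0.0818). Txndc5 read 497.3, 628.6, 687.7, 601.8, 1108.7 and 2380.8 in Apoe-deficient arrays and 282.5, 364.5, 408.9, 395.8 and 346.0 in wild-type arrays. The groups did not overlap for it, as in 1.53% of all probe sets above the line. The factor genes of plasma cells did not pass: Xbp1 had 0.42 in its most changed probe set (adjusted p = 0.146), Prdm1 0.29 (adjusted p = 0.413) and Irf4 1.29 under the line (adjusted p = 0.168).

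In the secretory folding list, which all secreting cells share, 3 of 42 probe sets rose, with a median of 0.25. They were Manf (0.54, adjusted p = 0.0142), Pdia4 (1.08, adjusted p = 0.0355) and Hspa5, the chaperone BiP (0.51, adjusted p = 0.0498). Without the filter Pdia4 (adjusted p = 0.0601) and Hspa5 (0.0607) lost their calls, and Pdia4 lost it without replicates 5 and 6 as well (0.0548). The other Pdia4 probe set gave -0.12 (adjusted p = 0.903) and the other Hspa5 probe set 0.27 (0.115). Replicates 5 and 6 had no lead for these: Manf read 1425.1 and 1426.5 in them and between 1218.4 and 1502.9 in the other Apoe-deficient arrays, against 823.4 to 1063.2 in wild-type arrays.

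Among ligands that attract or keep B and plasma cells, 1 of 6 probe sets above the line rose. Cxcl13, which draws B cells into follicles, read 309.2, 396.9, 231.4, 468.6, 148.4 and 730.1 in Apoe-deficient arrays, against 81.2, 97.6, 124.9, 139.3 and 109.0 in wild-type arrays. The groups did not overlap, as in 1.53% of all probe sets above the line, and replicate 5, high for the B cell markers, was the lowest of its group. Cxcl13 had a log2 difference of 1.55 (SE 0.31, adjusted p = 0.0261), while the other Cxcl13 probe set gave 0.50 (adjusted p = 0.293). Cxcl12, which retains plasma cells in marrow, had 1.25 (adjusted p = 0.0579) and 0.18 in 2 probe sets, and Tnfsf13b, the survival factor BAFF, had 0.02 (adjusted p = 0.95).

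Markers of other cells moved with some of these results, and their part in them was not tested. T cell markers were dim, with 1 of 17 probe sets above the line and 0 called, although replicates 5 and 6 were the 2 highest arrays in 4 of 17 (23.5%). That 1 probe set was of Zap70, a T cell kinase (-0.33, adjusted p = 0.438). The T cell sum ran from 837 to 1916 in Apoe-deficient arrays and from 825 to 1691 in wild-type arrays. Macrophage probe sets rose in 11 of 17 (C1qa, C1qb, C1qc, Cd68, Csf1r, Ctss, Lyz2, Mpeg1, Mrc1 and Tyrobp), with replicates 5 and 6 the 2 highest in 0 of 18. Their sum ran from 12099 to 17487 in Apoe-deficient arrays, with the lowest in replicate 5, and from 7022 to 9054 in wild-type arrays.

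For the plasmacytoid dendritic cell list 0 of 11 probe sets were called, for satellite glia 0 of 13, for sympathetic neurons 0 of 10 and for white adipocytes 0 of 8. The 2 genes of smallest p were Irf8 (0.54) and Pacsin1 (-0.30), Sox10 (-0.23) and Gja1 (0.29), Gata3 (0.39) and Phox2a (-0.50), and Lipe (-0.66) and Fabp4 (-0.97), none past the threshold in this fit. Phox2a was called without replicates 5 and 6 (-0.70, adjusted p = 0.0343), and a Gja1 probe set under the line was called without the filter (1.06, adjusted p = 0.0446). For epithelium they were Perp (0.34) and Cdh1 (-0.47). Adipocyte sums ran from 3713 in Apoe-deficient replicate 5 to 26984 in Apoe-deficient replicate 1, against 10897 to 34376 in wild-type arrays.

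Genes with the most similar pattern were sought over 11 arrays among 12755 or 12756 single-gene probe sets above the line, by Pearson correlation after subtracting each group's mean, as a description. For Pou2af1 they were Txndc5 (r = 0.94), Blnk (0.92) and Txndc11 (0.91), and for Ms4a1 Edem1 (0.97), Hk1 (0.95) and Scgb3a1 (0.95). For Cd22 they were Ctsz (0.95), Syngr3 (0.94) and Hnrnpab (0.94), and for Blk Cd82 (0.94), Asf1b (0.93) and Sf3b2 (0.91). With its brightest probe set Sdc1 was most like Itga7 (0.99), Nxf1 (0.96) and Nono (0.96). With the next probe set it was most like Tagln (0.94), Trit1 (0.93) and Zfp36 (0.90). No gene was among the most similar of more than 1 member probe set, so these lists do not set Sdc1 apart. All points share the 11 arrays and their scaling.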

How the data were processed

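Total RNA from 11 ganglion samples was measured on Affymetrix arrays. The deposited values are probe set signals on a linear intensity scale; the authors used GCOS 1.4, per the submitters' processing notes, and which signal algorithm they ran was not found in the labels. No detection call was used. Of 22690 probe sets, 64 array controls were left out, and genes were named from the platform annotation (20380 probe sets with 1 symbol, 691 with several, 1555 with none).

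Each signal became log2(signal + 16), and arrays were then quantile normalised. The 13863 probe sets that exceeded the overall 40th percentile in 5 or more arrays entered limma 3.58.1 under R 4.3.3 (intensity trend, two-sided, Benjamini-Hochberg adjustment over all of them, threshold 0.05); 187 were called, 129 higher and 58 lower. Figures were drawn with matplotlib 3.10.9. The test was tested on simulated data with known changes. The number of arrays limits the precision.

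The members and gene lists were chosen with earlier results of these data known. Named were all members, Apoe, the 2 genes of smallest p and all called genes of each list, and the 3 genes most like each member probe set above the line; Pax5, Vav1, Ell2, Txndc5, Edem1, Xbp1, Prdm1, Irf4, Tnfsf13b, Epcam and Dbh were added after their values were seen. Alternatives covered normalisation, pseudocount, filter, variance model, array weights, blocks and left-out arrays.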

Additional observations from a re-analysis of the deposited data

Results flagged for a closer look

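Dixon's criterion was applied to normalised log2 values in 30 groups (each member probe set, Apoe and Jchain, in each genotype). In 3 of them 1 array stood apart from its group, which chance meets in about 1 in 20 groups. The values given next are the deposited signals of those arrays, not the scale on which the criterion was met. Blk had 105.9 in wild-type replicate 1, against 172.7 in the next lowest wild-type array. The dimmest Sdc1 probe set had 105.3 in Apoe-deficient replicate 6, against 25.6 in the next highest Apoe-deficient array. Apoe had 7.2 in Apoe-deficient replicate 3, against 119.8 in the next lowest.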

How the results depend on the processing

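The count of member probe sets past the threshold, 0 as reported, was 1 (Pou2af1) with array weights and 1 without Apoe-deficient replicate 1, and 0 under every other setting run; without 1 array it ran from 0 to 1. The count over all probe sets, 187 as reported, was 1005 with array weights, 65 when arrays were blocked by hybridisation control level, 38 without the low level, 43 within the high and 60 within the middle level, and 483 without Apoe-deficient replicates 5 and 6, and ran from 82 to 502 without 1 array. Member probe sets above background were 6 as reported, 10 at the 20th percentile, 2 at the 60th and 3 against the genes of other tissues. Signs turned for 5 probe sets. Without Apoe-deficient replicates 5 and 6, Cd79a gave -0.20, Ms4a1 (brighter probe set) -0.15, Cd22 (brighter probe set) -0.15 and Sdc1 (dimmest probe set) -0.19. Cd22 (brighter probe set) gave -0.013 with the replicate block and from -0.013 (without Apoe-deficient replicate 6) to 0.25 without 1 array. Blk gave 0.0059 when blocked by control level and 0.22 within the middle level. Sdc1 (dimmest probe set) gave -0.0025 without quantile normalisation, -0.0051 at pseudocount 1, -0.082 with array weights, -0.24 with the replicate block, -0.35 within the middle level and from -0.24 (without Apoe-deficient replicate 6) to 0.19 without 1 array. The cause was not tested. With replicate numbers as a block, 0 members and 224 probe sets in all were called. Same-numbered arrays correlated from -0.18 to 0.23, over 0.1 in 1 of 5 pairs. So few pairs cannot decide whether the numbers pair the samples. Apoe ran from -7.08 to -6.13.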
